A study of Mus musculus with 8 samples.

Results

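Natural killer (NK) cells carrying almost no transcripts of granzymes D, E, F and G were examined in MC38 tumors collected 24 h after treatment. MC38 is a mouse colon carcinoma line, here grown under the skin of C57BL/6 mice, which were 8-week-old females according to the methods of the study. The tumors came from 3 mice given saline, 3 mice given free R848, an agonist of the innate sensors TLR7 and TLR8, and 2 mice given medium R848-BPD, a bottlebrush-shaped polymer prodrug that sheds R848 through a linker of medium release rate. CD45+ and CD45- cells of each mouse were loaded at 9 to 1 for Seq-Well single-cell RNA sequencing, so shares of cells in a library are set in part by that loading. A cell was taken as an NK cell when it held at least 2 transcripts, counted as unique molecular identifiers (UMIs), of Ncr1, Klre1 and Klrb1c together, at most 1 UMI of Cd3d, Cd3e and Cd3g, and at most 4 UMIs of C1qa, C1qb and C1qc. It was called granzyme-low when the UMIs of Gzmd, Gzme, Gzmf and Gzmg summed to at most 1. Of 10791 barcodes, 9886 passed the limits on quality, 849 were NK cells, and 263 of these were granzyme-low, which left 586 other NK cells.

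NK cells are innate lymphocytes that kill stressed or transformed cells by releasing granules of perforin and granzymes, and they also call in other leukocytes with chemokines. XCL1 is a chemokine made by NK and T cells that attracts the XCR1-bearing dendritic cells that prime cytotoxic T cells. Granzymes A and B are shared by mouse and human, whereas granzymes C to G are a group of closely related proteases particular to rodents and are found in strongly activated killer lymphocytes. Since the gate used counts of granzymes D to G, their own levels, and those of the NK, CD3 and C1q genes, are given below as a description only.

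The granzyme-low cells numbered 44, 41 and 31 in the saline tumors, 29, 42 and 23 in the free R848 tumors, and 38 and 15 in the medium R848-BPD tumors. Their libraries totaled between 5867590 and 12422614 UMIs over all listed barcodes. Granzyme-low cells were shallower than the other NK cells, with a median of 5228 UMIs against 7074 over all tumors, and lower in each of the 8 tumors. Their median share of mitochondrial UMIs was 3.71 to 6.05% per tumor against 3.07 to 4.77% in the other NK cells, and was higher in each of the 8 tumors. No NK cell shared its barcode with another library, although 23 barcodes were listed in more than 1. Scrublet, a doublet caller, marked 102 of the cells kept, among them 4 granzyme-low and 6 other NK cells.

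Genes outside the gate marked most but not all of these cells as NK cells. Nkg7, a granule membrane gene, was detected in 95.4% of granzyme-low cells and Eomes, a transcription factor of NK cells, in 68.1%, against 1.13% and 1.28% of C1q-positive cells. T cells of these tumors held Nkg7 in 69.8% and Eomes in 11.8%, so Nkg7 sets NK cells apart from macrophages more than from T cells. At least 1 UMI of Gzma, Gzmb, Gzmc, Prf1 or Nkg7 was held by 261 of the 263, with a median of 92 UMIs of the 5 together, against 218 in the other NK cells and 8 in T cells, of which 91.5% held at least 1. Transcripts of the T cell receptor constant regions Trac, Trbc1 and Trbc2 were found in 74.5% of granzyme-low and 80.9% of other NK cells, with medians of 1 and 2 UMIs, against 4 in the T cells of the same tumors. At least 10 UMIs of the macrophage receptors Csf1r, Ms4a7 and Fcgr1 together were found in 10 granzyme-low cells, 3 of them among the 15 of medium R848-BPD replicate 2, and in 2 other NK cells. In that same replicate 1 cell held 245 of the 246 UMIs of Sparc, a matrix gene of stroma, and no UMI of Gzma, Gzmb or Prf1. For Apoe, Lyz2, Cd14, Ctsb, Saa3 and the MC38 and stroma genes, values without such cells are given below.

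The 4 granzymes of the gate lie next to each other on the minus strand of chromosome 14 and are near copies, with 83.7 to 93.3% identity between their coding sequences. The ends of these coding sequences, shown because such near copies can share reads, are read from GENCODE on build GRCm38 and run to the stop codon, with capitals where a base differs from Gzmd.
Gzmd, chr14:56129675-56129734: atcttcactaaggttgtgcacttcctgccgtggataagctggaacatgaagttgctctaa
Gzme, chr14:56117726-56117785: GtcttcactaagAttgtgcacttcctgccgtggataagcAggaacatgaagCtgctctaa
Gzmf, chr14:56205375-56205434: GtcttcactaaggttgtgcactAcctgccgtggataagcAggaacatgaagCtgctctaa
Gzmg, chr14:56156689-56156748: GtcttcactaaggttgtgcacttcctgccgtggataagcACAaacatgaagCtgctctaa
Only 4, 4 and 5 of these 60 bases set Gzme, Gzmf and Gzmg apart from Gzmd, so the level of any single member is uncertain and the 4 were summed. In the other NK cells the mean levels over the 8 tumors were 6549 CPM (UMIs per 1000000 UMIs) for Gzmd, 2419 for Gzme, 2717 for Gzmf and 3150 for Gzmg. The granzyme-low cells held 20, 9, 3 and 5 UMIs of them in all. The NK receptor genes that admitted both classes lay at like levels, with 269 CPM of Ncr1 in granzyme-low and 276 in other NK cells, 276 and 271 of Klre1, and 335 and 276 of Klrb1c. All levels here are CPM of the UMIs outside the 13 gate genes, whereas fold changes come from models that also scale libraries by TMM.

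The limit of the gate fell on a gradual scale, described here over the pooled cells of all 8 tumors. No UMI of granzymes D to G was found in 226 of the granzyme-low cells and 1 UMI in 37, while 21 NK cells with 2 UMIs lay just outside. The pooled level of Xcl1 was 689.9 CPM at 0 UMIs, 721.5 just inside and 672 just outside, stayed between 547 and 774 up to 19 UMIs, and was 394 at 20 to 49 and 164 at 50 or more. The makeup of these steps by treatment differed, with 21.2% of the cells at 0 UMIs and 33.3% of those at 50 or more from medium R848-BPD tumors, where Xcl1 was lowest. Within saline tumors Xcl1 was at 1200.3 CPM at 0 UMIs, between 642 and 1221 from 1 to 49 and 309 at 50 or more. Within free R848 tumors it was at 552 CPM at 0 UMIs, between 374 and 1018 from 1 to 49 and 172 at 50 or more. The 48 medium R848-BPD cells at 0 UMIs held 15 UMIs of Xcl1 or 47.1 CPM, and the level was between 24.3 and 282 CPM from 1 to 49 and 20.4 at 50 or more. Gzmc, a related granzyme left out of the gate, was at 6389.6 CPM at 0 UMIs, 10012 at 1, 9799 at 2 and 16983 at 50 or more. For the limit on NK genes, 56 granzyme-low cells with 2 UMIs had 477 CPM of Xcl1 and 66 cells just outside with 1 UMI had 169. For the limit on CD3 genes, 15 cells with 1 UMI had 812 CPM of Xcl1 and 3 cells with 2 UMIs had 63.5. For the limit on C1q genes, 5 cells with 3 to 4 UMIs had 219 CPM and 2 cells with 5 to 6 UMIs had 42.5.

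**Figure D1:**
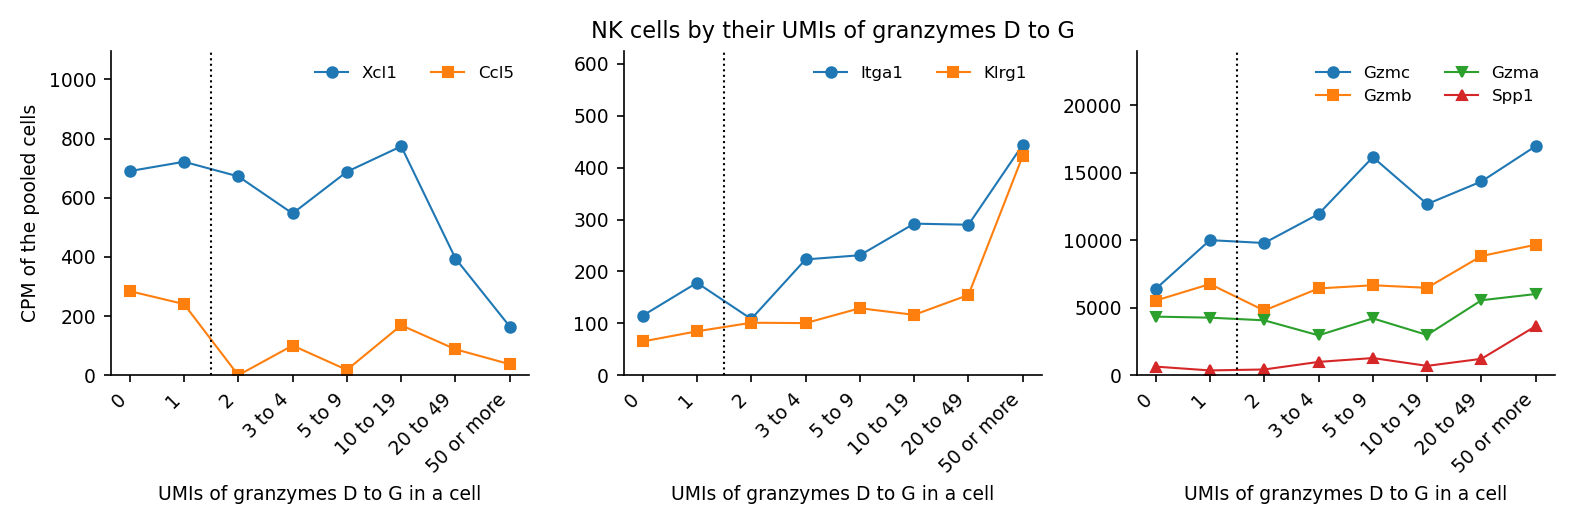
Pooled levels in CPM (vertical axes) of Xcl1 and Ccl5, of Itga1 and Klrg1, and of Gzmc, Gzmb, Gzma and Spp1 in NK cells grouped by their UMIs of granzymes D to G (horizontal axes), with the dotted line at the limit of the gate. Xcl1 held a level between 547 and 774 CPM up to 19 UMIs and was at 164 CPM at 50 or more, while Klrg1 and Itga1 were at their highest there.

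The granzyme-low cells were next compared with the other NK cells of the same tumor, over summed counts with the tumor as a block. Of 4977 genes tested, 378 passed at an adjusted p under 0.05, that is 7.59%, with 244 higher and 134 lower in the granzyme-low cells. Shares of 4.9% and 2.69% are the background for the counts of list members given in each direction below. The chemokine genes Xcl1 and Ccl5 were higher in the granzyme-low cells, 5 of 19 genes of the cytotoxic granule lower, and 9 of 26 type I interferon-stimulated and 11 of 16 immediate-early genes higher. Of 93 genes named by rule for this comparison, 50 were called under every alternative they could be tested in.

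Xcl1 stood in the granzyme-low cells at 1483, 1011 and 1039 CPM in the saline tumors, 593, 524 and 463 in the free R848 tumors, and 33.7 and 104 in the medium R848-BPD tumors. In the other NK cells it stood at 755, 455 and 229 CPM, at 259.5, 431 and 455 CPM, and at 46.8 and 30.3 CPM in the same order. The granzyme-low cells of a tumor were above its other NK cells in 7 of 8 tumors, all but medium R848-BPD replicate 1. The log2 fold change of Xcl1 was 0.93 (SE 0.18, adjusted p = 0.0010, edgeR), and between 0.73 and 1.22 over the alternatives, in all of which the call was kept. T cells of these tumors had 16.7 to 394 CPM of Xcl1. After every cell was thinned to 2000 UMIs, Xcl1 was detected in 73.7% ± 11.5 (SD, n = 3 tumors) of granzyme-low cells and 41.4% ± 15.6 of other NK cells in saline tumors, against 0.531% of C1q-positive cells, whose median depth before thinning was 5672 UMIs. Without thinning the shares in the NK classes were 83.5% and 57.4%.

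Of the other chemokine and cytokine genes tested, Ccl5, a chemokine for T cells and monocytes, had a log2 fold change of 2.58 (SE 0.29, adjusted p = 1.16e-06) and Ifng, which encodes interferon gamma, one of 0.89 (SE 0.26, adjusted p = 0.0333). The call of Ifng was kept in 9 of 17 alternatives and lost without free R848 replicate 1 or 3, saline replicate 1 or 3, or medium R848-BPD replicate 2, with values of 0.69 to 1.14 when a tumor was left out. Ccl5 was at 31.8 to 824 CPM in the granzyme-low cells and at 3.77 to 127 CPM in the other NK cells, and higher in the former in 7 of 8 tumors. In each tumor 1 cell held 31.25 to 73.64% of the Ccl5 UMIs of its granzyme-low cells, and the saline libraries held 19, 10 and 3. Between the classes Ccl5 had no value without the cells holding 10 or more UMIs of the macrophage receptors. C1q-positive cells of the same tumors had 49.8 to 1070.4 CPM of Ccl5.

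Within the cytotoxic granule list, 5 of 19 genes tested were lower and 0 higher in the granzyme-low cells, with a list median of -0.02 against -0.0045 over all genes. Gzmc ranged from 4160 to 10747 CPM in granzyme-low cells and from 12119 to 17296 in other NK cells, without overlap, with a log2 fold change of -1.15 (SE 0.10, adjusted p = 5.16e-08). Since Gzmc is a close relative of the 4 granzymes of the gate, reads shared between them cannot be told apart from its own. Prf1, the pore-forming perforin, had a log2 fold change of -0.68 (SE 0.11, adjusted p = 3.0e-04), and Gzmb one of -0.42 (SE 0.12, adjusted p = 0.0243). The call of Gzmb was kept in 11 of 19 alternatives and lost without free R848 replicate 1 or 2, saline replicate 2, or either medium R848-BPD tumor, with values of -0.56 to -0.33 when a tumor was left out. Cst7, an inhibitor of granule proteases, and Rab27a, which docks granules for release, were the other 2 that fell. Gzma had a log2 fold change of 0.10 (SE 0.11, adjusted p = 0.709), and Nkg7 one of 0.19 (SE 0.10, adjusted p = 0.314).

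Genes of NK maturation and of tissue residency split between the classes. Itga1, which encodes the CD49a integrin of tissue-resident lymphocytes, was at 33.7 to 192 CPM in granzyme-low and 145 to 549 CPM in other NK cells, with a log2 fold change of -1.62 (SE 0.19, adjusted p = 3.0e-06). Itgb2, the common chain of the leukocyte integrins, was at 288 to 475 CPM and 152 to 293 CPM and was higher in the granzyme-low cells of all 8 tumors, by 0.95 on the log2 scale (SE 0.12, adjusted p = 9.03e-06). Among genes of NK maturation and homing, Itgam, Zeb2 and Emb were also higher, by 2.14, 1.26 and 0.64, and Ccr2 was lower. Itgam had no value without the cells holding 10 or more UMIs of the macrophage receptors, whereas Zeb2, Emb and Ccr2 kept their calls. In the list of ILC1 and tissue residency, where ILC1 are tissue-resident relatives of NK cells, 2 of 8 were higher (Rora and Tcf7) and Itga1 lower. Eomes and Tbx21, the 2 factors that define the NK lineage, had log2 fold changes of -0.14 (adjusted p = 0.627) and 0.34 (adjusted p = 0.346).

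The checkpoint receptors were mostly lower where they passed the test. Klrg1, an inhibitory receptor of matured NK cells, was at 19.6 to 115 CPM in granzyme-low cells and 115 to 426 CPM in other NK cells, with a log2 fold change of -2.03 (SE 0.20, adjusted p = 1.78e-07). Havcr2, which encodes TIM-3, was at 0 to 69.1 CPM and 58.3 to 226 CPM, with a log2 fold change of -1.79 (SE 0.22, adjusted p = 4.25e-06). Tnfrsf9 was also lower and Tigit higher, so that 3 of 8 checkpoint genes fell and 1 rose. Among NK receptors 1 of 18 was higher (Klra4) and 2 were lower (Fcgr3, the CD16 receptor for antibody, and Tyrobp, the adaptor of several activating receptors). These last calls were kept in 9 and 6 of 19 alternatives, and both were lost in DESeq2 and without any saline tumor, replicate 1 of medium R848-BPD, or replicate 1 or 2 of free R848. Over the fits that left out a tumor Fcgr3 lay between -0.86 and -0.58 and Tyrobp between -0.32 and -0.24. Tigit was lost without free R848 replicate 1 or 2 or saline replicate 2, and Klra4 without replicate 1 of free R848 or of saline.

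Receptors for the cytokines that drive NK cells were higher in 7 of 14 tested, and 0 were lower. Il12rb2, a chain of the receptor for interleukin 12, was at 75.4 to 159 CPM in granzyme-low and 31.2 to 66.6 CPM in other NK cells, without overlap, with a log2 fold change of 1.15 (SE 0.20, adjusted p = 4.86e-04). Il18r1 and Il18rap of the interleukin 18 receptor rose by 0.83 and 0.57, Ifnar2 of the type I interferon receptor by 1.09, and Ifngr1, Il21r and the feedback inhibitor Socs3 made up the rest. The call of Il18rap was kept in 12 of 19 alternatives and lost without replicate 1 or 3 of free R848 or of saline, with values of 0.47 to 0.68 when a tumor was left out. Il18r1 was lost without free R848 replicate 1, and Ifnar2 and Il21r without saline replicate 1. Of the transcription factors of NK cells 5 of 15 were higher (Ikzf3, Ets1, Stat4, Bhlhe40 and Myc) and 0 lower. Bhlhe40 kept its call in 13 of 19 alternatives and lost it without replicate 2 or 3 of free R848 or saline replicate 1, and Ikzf3 kept its own in 14 of 19 and lost it without replicate 1 of free R848 or of saline. Cell cycle genes, with 0 of 23 called and a median of -0.18, and genes of growth and biosynthesis, with 0 of 16 called and a median of 0.01, gave no call in edgeR in either direction.

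Immediate-early genes, which switch on within minutes of a stimulus and also during tissue dissociation, were higher in 11 of 16 tested, with 0 lower and a median of 0.78. Dusp1, a phosphatase of this response, ranged from 52.2 to 253.5 CPM in granzyme-low and from 16.9 to 66.6 CPM in other NK cells, and Fos from 63.7 to 352 CPM and from 15.5 to 173 CPM. Their log2 fold changes were 1.41 (SE 0.24, adjusted p = 2.97e-04) and 1.48 (SE 0.29, adjusted p = 0.00144). The mitochondrial share, given above, was also higher in the granzyme-low cells of every tumor, and its part in the rise of these genes was not tested. Type I interferon-stimulated genes were higher in 9 of 26 and lower in 0, with a median of 0.57, among them Irf7 at 84.8 to 634 CPM against 64.3 to 178.5 CPM, with a log2 fold change of 1.16 (SE 0.21, adjusted p = 8.07e-04). Isg15 and Oasl2, which encode antiviral effectors, rose by 1.25 and 1.75. Genes induced by interferon gamma were higher in 5 of 14 (Gbp2, Gbp6, Igtp, Irf1 and Cxcl10) and lower in 0. Of the glycolysis and hypoxia list Vegfa and Ndrg1 were higher and Gpi1, Eno1 and Ldha lower, of 17 tested. Not all of these calls were firm. Of the immediate-early genes Jun was called in 13 and Ier2 in 8 of 19 alternatives, both lost without replicate 1 or 2 of free R848 or of saline, and Ier2 also without replicate 1 of medium R848-BPD. Of the type I interferon list Bst2 was called in 8 of 19, Mx1 in 10 of 16 and Rtp4 in 5 of 12 alternatives, and each was lost without saline replicate 1 and without replicate 2 of medium R848-BPD, among other tumors. Without the cells holding 10 or more UMIs of the macrophage receptors, Mx1 was at 0.64 (adjusted p = 0.180, edgeR) and not called. Gbp2 was at 0.61 there (adjusted p = 0.0742, edgeR), also not called. Calls were kept in 7 of 18 alternatives for Gbp2, 12 of 19 for Cxcl10, 7 of 19 for Ndrg1, 9 of 19 each for Gpi1 and Eno1 and 14 of 19 for Ldha. Without replicate 1 of medium R848-BPD all 6 of these lost the call, as did Gbp6 and Igtp, and without free R848 replicate 2 again all 6 did. Calls were also lost without saline replicate 1 (Gbp2 and Cxcl10), 2 (Gbp2, Ndrg1, Gpi1 and Eno1) or 3 (Gpi1), without free R848 replicate 1 (Ndrg1, Eno1 and Ldha) or 3 (Gbp2), and without replicate 2 of medium R848-BPD (Cxcl10 and Ndrg1).

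Macrophage transcripts moved with these differences. Of 7 macrophage and monocyte genes tested, Lyz2, Apoe, Ctss, Lgmn, Cd14 and Ctsb were higher in the granzyme-low cells and Spp1 was lower. Lyz2 ranged from 30.0 to 456 CPM in granzyme-low and from 0 to 404 CPM in other NK cells. Single cells held 81.2% of the Apoe UMIs of saline replicate 1, 61.1% of those of saline replicate 2 and 90.4% of those of free R848 replicate 2. When cells with 10 or more UMIs of the macrophage receptors were removed, a setting chosen after seeing the data, Apoe had a log2 fold change of 0.63 (adjusted p = 0.0561), Lyz2 one of 0.65 (adjusted p = 0.559), Cd14 one of 0.60 (adjusted p = 0.405) and Ctsb one of 0.36 (adjusted p = 0.161), none called, while Ctss was called at 0.89. Lyz2 also lost its call without free R848 replicate 1 or saline replicate 2, and Ctsb without free R848 replicate 2. Lgmn did not pass the filter on low counts there and has no value. The summed level of the whole list was 1452 to 5428 CPM in granzyme-low cells, 2103 to 4836 CPM in other NK cells and 29495 to 48301 CPM in C1q-positive cells. This sum includes Spp1, so in NK cells it does not measure macrophage RNA alone. In pooled NK cells Spp1 was at 638 CPM at 0 UMIs of granzymes D to G and 3639 CPM at 50 or more. The list of immediate-early genes summed to 5946 to 10197 CPM in C1q-positive cells, against 3459 to 5596 CPM in granzyme-low and 2356 to 5178 CPM in other NK cells. The type I interferon list summed to 8224 to 15479 CPM in C1q-positive cells, against 2342 to 7756 CPM and 2139 to 4016 CPM. A second comparison chosen after seeing the data used only NK cells with at most 1 UMI of Lyz2, Apoe, Cd74, C1qa, C1qb and C1qc together, and called 184 of 3692 genes. There the macrophage list had 0 of 3 genes higher and 1 lower, the granule list 5 of 18 lower, the immediate-early list 8 of 13 higher with a median of 0.79, and the cytokine receptor list 4 of 12 higher. The type I interferon list had 3 of 14 higher with a median of 0.17, Irf7, Zbp1 and Ifi35. Xcl1, Ccl5, Itgb2 and Emb were called as higher there.

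Markers of other cell types were compared in the same way. All 4 dendritic cell genes tested had positive fold changes, with a median of 1.17, and Cd74, the invariant chain of MHC class II, was called at 1.82 (SE 0.36, adjusted p = 0.00152), but did not pass the filter on low counts without cells rich in macrophage receptors. The dendritic list of 12 genes summed to 196 to 1157 CPM in granzyme-low cells, 105 to 672 CPM in other NK cells and 1215 to 12982 CPM in C1q-positive cells. Of 5 T cell genes tested Lat was higher by 0.88 and Cd247 by 0.66, both of which NK cells also use in receptor signaling, and the median was 0.14. The call of Lat was kept in 7 of 9 alternatives and lost without saline replicate 3, and that of Cd247 in 7 of 18 and lost without any free R848 or medium R848-BPD tumor or saline replicate 1 or 3. The T cell list summed to 472 to 915 CPM in granzyme-low, 404 to 679 CPM in other NK cells and 2213 to 5611 CPM in T cells. Of the B cell list only Ighm was tested, and it was lower by 0.98 on the log2 scale, called in all 19 alternatives. The part of RNA from these cell types in the differences between the classes was not tested.

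**Figure D2:**
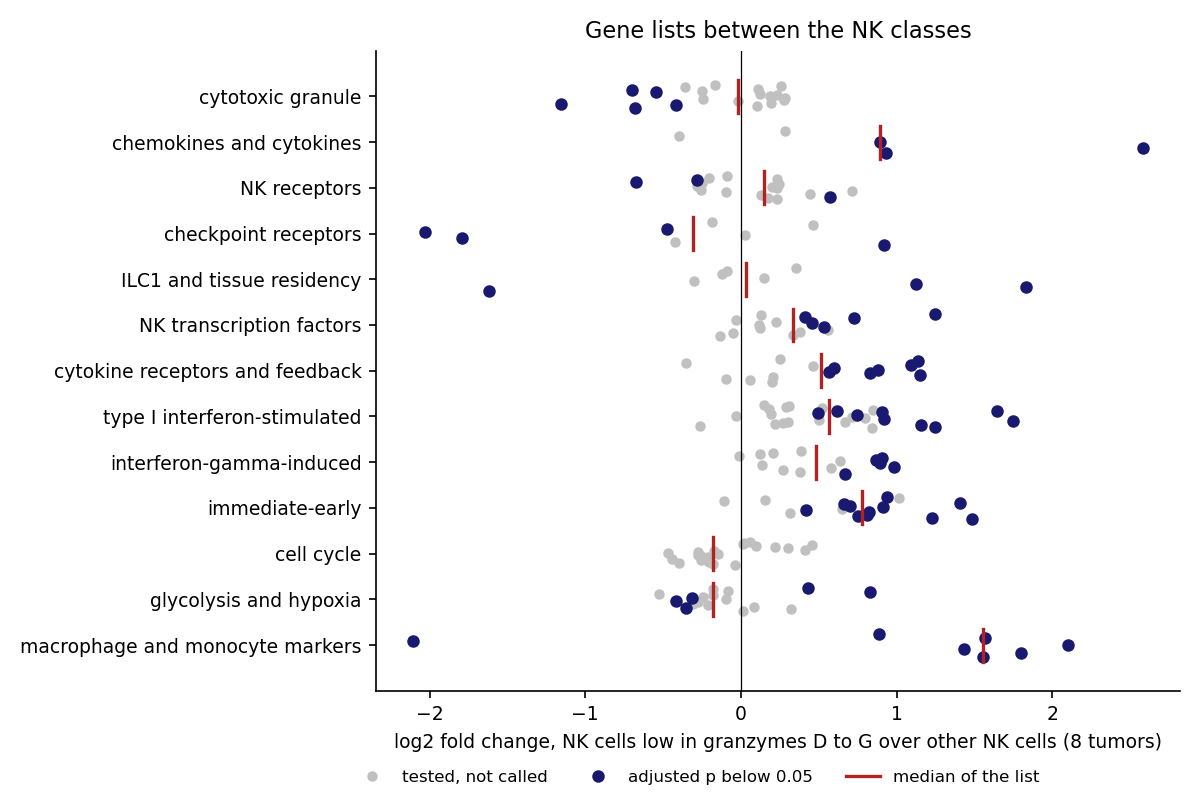
Log2 fold change of granzyme-low over other NK cells of the same tumor (horizontal axis) for each tested gene of 13 lists (rows), with dark points at an adjusted p under 0.05 and the red bar at the median of the list. Cytotoxic granule and checkpoint genes that were called lay mostly to the left, and 11 of 16 immediate-early and 6 of 7 macrophage genes were called to the right.

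Over all genes tested, members of lists among them, the rises largest in size with the same direction in all 8 tumors, among genes of moderate level or more, were Tgfbi (log2 fold change 2.59), Sla (2.32), Piezo1 (2.21), Lgmn (2.10), Stk10 (1.80), Apoe (1.80), Cd97 (1.79), Limd2 (1.66), Itgax (1.56) and Gimap3 (1.52). The falls were Avil (-2.88), Cd55 (-2.62), Ifitm1 (-2.14), Spp1 (-2.11), Sh2d1b2 (-2.07), Cdh1 (-1.92), Tmem171 (-1.82), Havcr2 (-1.79), Myo10 (-1.77) and Dixdc1 (-1.64). Sla encodes an adaptor that dampens antigen receptor signaling and was at 52.2 to 187 CPM in granzyme-low and 11.1 to 42.9 CPM in other NK cells. Cd55, a complement inhibitor, was at 11.5 to 74.0 CPM and 109 to 390.0 CPM. Cdh1 encodes E-cadherin, a ligand of Klrg1, and was at 11.5 to 62.3 CPM and 30.3 to 232 CPM. Of these, Apoe was not called without cells rich in macrophage receptors, as given above, and Lgmn could not be tested there, whereas the other 8 rises were called. Tgfbi was then at 1.88 in place of 2.59, below Sla at 2.33 and Piezo1 at 2.07. A single cell held 58.3 to 80% of the Tgfbi UMIs of the granzyme-low cells in 6 of 8 tumors. In all, 5.08% of genes tested had the same direction in all 8 tumors.

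The 3 treatments were then compared within the granzyme-low cells, over 5170 genes. The 3 comparisons share samples, since each group enters 2 of them, so their values are given side by side and no overlap between them is read. Medium R848-BPD against free R848 gave 5 calls (0.0967%), 4 of them higher (0.0774%), Saa3, Ccl5, Il4i1 and Il2ra, and 1 lower, Xcl1. Medium R848-BPD against saline gave 14 calls (0.271%), 11 higher and 3 lower, and free R848 against saline gave 1 call (0.0193%), Ccl5, which was higher. Tumors of the 2 groups did not overlap for 20%, 22.2% and 9.9% of all genes, respectively. Without medium R848-BPD replicate 1, the counts against free R848 and saline were 55 and 73, with the remaining library assumed to vary like the other groups. Against free R848 the count was 10 without medium R848-BPD replicate 2, and 3 without free R848 replicate 1, free R848 replicate 3 or saline replicate 1. Against saline it was 9 without free R848 replicate 1 and 8 without saline replicate 1.

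Xcl1 fell most plainly. In the medium R848-BPD tumors its level rested on 9 UMIs in each library, found in 7 of 38 and 4 of 15 cells, whereas the saline libraries held 381, 295 and 98 UMIs and the free R848 libraries 94, 149 and 71. The levels of the 3 groups, listed above, did not overlap, with saline highest and medium R848-BPD lowest. The log2 fold change was -3.26 (SE 0.39, adjusted p = 2.21e-04) against free R848 and -4.41 (SE 0.39, adjusted p = 1.22e-06) against saline. For free R848 against saline it was -1.16 (SE 0.24, adjusted p = 0.320), with a call in 7 of 21 alternatives and adjusted p between 8.49e-04 and 0.999 over them. Both comparisons of medium R848-BPD were called in all 21 alternatives, from -3.98 to -2.32 and from -5.13 to -3.47. With only cells low in macrophage RNA they were -3.90 (adjusted p = 6.24e-05) and -4.95 (adjusted p = 5.84e-07).

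After thinning to 2000 UMIs, Xcl1 was detected in 73.7% ± 11.5 of granzyme-low cells in saline, 47.2% ± 7.06 in free R848 (n = 3 tumors each) and 12.6% ± 10.4 in medium R848-BPD (n = 2). Without thinning these shares were 83.5%, 59.5% and 22.5%. The other NK cells showed the same order after thinning, at 41.4%, 32.6% and 3.0%, and T cells had 17.3%, 14.7% and 12.0%. C1q-positive cells, which should lack the gene, had 0.531%, 0.198% and 0%. The fall of Xcl1 was not shown to differ between the NK classes. The difference of its treatment effects between granzyme-low and other NK cells was -0.30 for medium R848-BPD against free R848, -1.15 against saline and -0.85 for free R848 against saline, none called (adjusted p = 1.00, 1.00 and 1.00). When a tumor was left out these values lay between -1.01 and 1.27, between -1.86 and 0.43, and between -1.20 and -0.53, none called. The first 2 turned to 1.27 and 0.43 without replicate 1 of medium R848-BPD, and the first also to 0.056 without free R848 replicate 1.

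Of 19 cytotoxic granule genes, 3 were called higher and 0 lower in medium R848-BPD against saline, where 0.213% of all genes were called higher. The list median was 0.22 against 0.0040 over all genes, and 11 of the 19 fold changes were positive. Gzma stood at 2184, 2313 and 3497 CPM in saline, 4409, 3485 and 5051 CPM in free R848, and 8702 and 6327 CPM in medium R848-BPD. Both medium R848-BPD tumors were above the other 6, and free R848 and saline overlapped by a narrow margin. The log2 fold change of Gzma against saline was 1.52 (SE 0.22, adjusted p = 0.00104) and was called in all 21 alternatives, while against free R848 it was 0.80 (SE 0.22, adjusted p = 0.388). The gene was found in 27 of 38 and 13 of 15 cells of the medium R848-BPD libraries.

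Prf1 stood at 1471, 966 and 933 CPM in saline, 1444, 1305 and 1834 CPM in free R848, and 2721 and 2385 CPM in medium R848-BPD, with both tumors of the last group above the rest. It rose against saline by 1.19 (SE 0.22, adjusted p = 0.0173) and against free R848 its log2 fold change was 0.75 (adjusted p = 0.579). Gzmb stood at 4262, 3674 and 3582 CPM, 4529, 4856 and 8295 CPM, and 9890 and 6603 CPM, so that medium R848-BPD overlapped with free R848 but not with saline. It rose against saline by 1.12 (SE 0.23, adjusted p = 0.0337), and against free R848 had a log2 fold change of 0.49 (adjusted p = 0.920). The call against saline was lost for Prf1 in 5 and for Gzmb in 8 of the 21 alternatives, for both without free R848 replicate 1, saline replicate 2 or saline replicate 3 and with a granzyme limit of 0 UMIs, and for Gzmb also without medium R848-BPD replicate 1 or saline replicate 1. With only cells low in macrophage RNA, Gzma, Prf1 and Gzmb were called against saline at 1.61, 1.24 and 1.30.

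**Figure D3:**
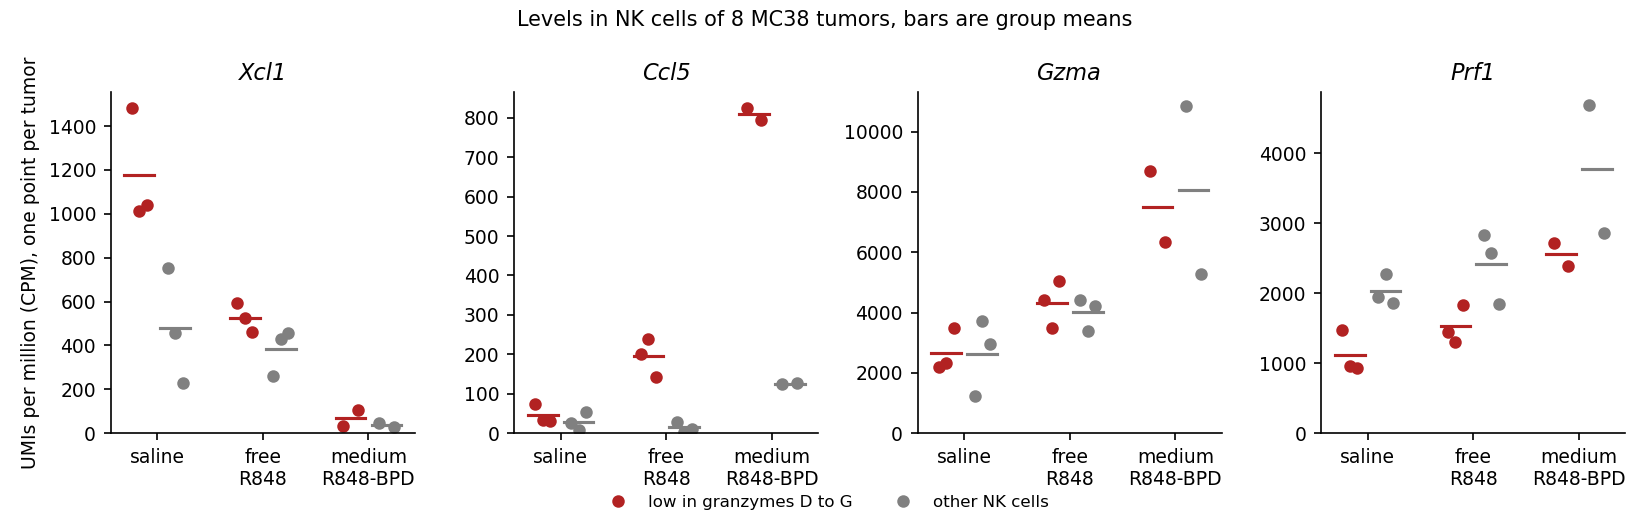
Levels in CPM (vertical axes) in each tumor of Xcl1, Ccl5, Gzma and Prf1 in granzyme-low (red) and other NK cells (gray), by treatment (horizontal axes). Bars are group means. Granzyme-low cells had 463 CPM of Xcl1 or more in the 6 saline and free R848 tumors and at most 104 CPM in the 2 medium R848-BPD tumors.

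Ccl5 rose in both treatments, but single cells held much of it. It stood at 74.0, 34.3 and 31.8 CPM in saline, 202, 239 and 144 CPM in free R848, and 824 and 795 CPM in medium R848-BPD, without overlap between groups. The log2 fold changes were 2.04 (SE 0.28, adjusted p = 0.00116) for medium R848-BPD against free R848, 4.04 (SE 0.33, adjusted p = 6.69e-07) against saline and 2.0 (SE 0.33, adjusted p = 0.0397) for free R848 against saline. In medium R848-BPD replicate 1, 162 of 220 Ccl5 UMIs were in 1 cell, which also held all 69 Il4i1 and all 28 Sema7a UMIs of the library, 21 UMIs of Fscn1, an actin-bundling gene high in matured dendritic cells, and none of Gzma, with 8 UMIs of the NK genes. In replicate 2, 36 of 69 were in 1 cell with 9 UMIs each of Ccr7 and Fscn1.

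Without cells holding macrophage RNA the call of Ccl5 against saline was kept, at 2.78 (adjusted p = 0.00558) for medium R848-BPD and 2.72 (adjusted p = 0.0196) for free R848, but the value for medium R848-BPD against free R848 was 0.058 (adjusted p = 0.999). With a granzyme limit of 0 UMIs it was 1.63 and also not called. Without cells rich in macrophage receptors the value was 1.83 (adjusted p = 3.45e-04) and the call was kept. The cells with 162 and 36 Ccl5 UMIs held 0 UMIs of these receptors, so that setting kept both and could not test their part. For free R848 against saline the call of Ccl5 was lost in 7 of 21 alternatives, among them without free R848 replicate 1, free R848 replicate 2, saline replicate 2 or saline replicate 3. C1q-positive cells had 49.8, 137 and 122 CPM of Ccl5 in saline, 455, 517 and 313 CPM in free R848, and 1070.4 and 993 CPM in medium R848-BPD, in the same order as the granzyme-low cells. The part of RNA from other cells in the rise of Ccl5 was not tested further.

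Saa3, an acute-phase gene, and Il4i1, an amino acid oxidase of myeloid cells, also rested on few cells. Saa3 was at 0 in all 3 saline libraries, at 0, 0 and 19.6 CPM in free R848, and at 551 and 1763 CPM in medium R848-BPD, at least 248-fold above a floor of 3 counts over the saline group. One cell held 129 of 147 Saa3 UMIs in replicate 1, and another, marked by Scrublet and with 14 UMIs of the macrophage receptors, 73 of 153 in replicate 2. C1q-positive cells of these tumors had 9047 and 15091 CPM of Saa3, and at most 117 CPM in the other 6. The log2 fold change of Saa3 against free R848 was 7.63 (adjusted p = 1.34e-05), and without cells rich in macrophage receptors it was 5.85 (adjusted p = 2.10e-04), with the level of replicate 2 then at 54.0 CPM and that of replicate 1 unchanged at 551 CPM. The replicate 1 cell with 129 Saa3 UMIs held 0 UMIs of these receptors and was not removed by that setting. The calls of Saa3 against both groups were lost in DESeq2. They were also lost with at least 3 UMIs of the NK genes. There replicate 2 had 8 granzyme-low cells, under the minimum of 10, so only replicate 1 of medium R848-BPD was fitted. Il4i1 was at 15.6, 0 and 10.6 CPM in saline, 0, 14.1 and 6.53 CPM in free R848, and 259 and 57.6 CPM in medium R848-BPD, with all UMIs of replicate 1 in the cell described above. Sema7a was at least 19.9-fold higher than the saline group, whose libraries were all at 0, and its 28 UMIs in replicate 1 were in that cell as well. The call of Il4i1 against free R848 was lost without free R848 replicate 1 or 3, and against both groups when cells were gated after thinning. The call of Sema7a against saline was lost without saline replicate 1 or 2.

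The remaining calls were spread over more genes of known function. Il2ra, the high-affinity chain of the interleukin 2 receptor, stood at 164, 137 and 74.2 CPM in saline, 56.8, 98.5 and 117.5 CPM in free R848, and 356 and 242 CPM in medium R848-BPD, both above all others. It rose against free R848 by 1.75 (SE 0.33, adjusted p = 0.0358), which was lost in 11 of 21 alternatives, among them each that left out a free R848 tumor, replicate 1 of medium R848-BPD or saline replicate 1. Ly6a, the interferon-induced surface protein Sca-1, stood at 187, 271 and 95.4 CPM in saline, 435, 489 and 346 CPM in free R848, and 764.5 and 679.9 CPM in medium R848-BPD, without overlap, and rose against saline by 1.90 (SE 0.29, adjusted p = 0.00222). AA467197 stood at 159.6, 116.5 and 63.6 CPM, 246, 281 and 274 CPM, and 674.5 and 392 CPM, and rose against saline by 2.19 (SE 0.31, adjusted p = 9.28e-04). S100a4, a calcium-binding protein of motile cells, stood at 420.4, 343 and 424 CPM, 221, 355 and 287 CPM, and 109 and 34.6 CPM, and fell by 2.21 on the log2 scale against saline (adjusted p = 0.00404). Each of these 3 calls was lost in 1 of 21 alternatives.

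Fth1, the ferritin heavy chain that stores iron, and Ndrg1, a gene of hypoxia and differentiation, rose against saline by 1.31 and 1.41, and Ighm, an immunoglobulin gene also transcribed at a low level in lymphocytes other than B cells, fell by 1.63. These 3 kept the call in 9, 7 and 6 of 21 alternatives. Fth1 was at 0.66 (not called) without medium R848-BPD replicate 2 and at 0.72 (adjusted p = 0.319) without cells rich in macrophage receptors, and its call was also lost without free R848 replicate 1 or saline replicate 1 or 3. Ndrg1 lost its call without any saline tumor, free R848 replicate 1 or 3, or replicate 2 of medium R848-BPD, with values of 1.19 to 1.64 when a tumor was left out. Ighm lost its call without any tumor other than free R848 replicate 2, with values of -2.11 to -1.47.

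Lists other than these gave few calls between treatments. Of 29 type I interferon-stimulated genes 0 were called in any comparison, with medians of 0.58 for medium R848-BPD against free R848, 0.60 against saline and 0.24 for free R848 against saline, beside -0.0090, 0.0040 and 0.015 over all genes. Positive fold changes were found for 24, 25 and 20 of the 29. Irf7 stood at 234, 178 and 84.8 CPM in saline, 309, 225 and 268 CPM in free R848, and 179.9 and 634 CPM in medium R848-BPD, so the 2 tumors of the last group were lowest and highest of the 5 treated. Genes induced by interferon gamma had medians of 0.69, 0.63 and 0.06 over 16 genes, with Ly6a the only call. NK receptors had medians of -0.42, -0.24 and 0.14 over 20 genes, immediate-early genes of 0.05, -0.30 and -0.09 over 17, and cell cycle genes of 0.04, -0.26 and -0.27 over 23, with 0 calls in edgeR. At an unadjusted p under 0.05 these 3 comparisons gave 276, 299 and 195 of all 5170 genes.

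MC38 and stroma genes, of which 4 were tested, had medians of 1.87, 2.10 and 0.19 with 0 called, and their summed level in granzyme-low cells was 229 and 5773 CPM in medium R848-BPD. Without the cell holding most Sparc UMIs in each library these values were 101 and 324 CPM, against 45.3 to 96.2 CPM in the other 6 tumors. In simulated counts of the same depth, 18% of genes changed by 1 on the log2 scale and 65% of genes changed by 2 were recovered for medium R848-BPD against free R848, with 4 false calls among 4886 genes.

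The share of NK cells that were granzyme-low was compared after thinning to 2000 UMIs, because a shallow cell more easily shows at most 1 UMI. It was 37.1%, 51.1% and 24.6% in saline, 41.0%, 44.1% and 59.2% in free R848, and 24.5% and 45% in medium R848-BPD, and the groups overlapped. Means were 37.6% ± 13.3 (SD, n = 3), 48.1% ± 9.73 (n = 3) and 34.7% ± 14.5 (n = 2). Without thinning the shares were 30.6%, 44.6% and 22.6%, 34.5%, 37.8% and 44.2%, and 20.2% and 36.6%. Exact two-sided permutation tests over tumors gave p = 0.5 for medium R848-BPD against free R848, 0.7 against saline and 0.4 for free R848 against saline, and the smallest p these designs allow is 0.1. With at least 3 UMIs of the NK genes required, the shares after thinning were 40.8%, 45.9% and 57.9% in free R848 and 22.6% and 32.3% in medium R848-BPD, which no longer overlapped, with a difference of -20.8 points in place of -13.4 and the smallest p allowed, 0.1. Against saline the difference of medium R848-BPD was then -10.1 points in place of -2.85 (p = 0.4, exact permutation test).

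Of all cells kept, granzyme-low NK cells made up 3.20%, 2.84% and 2.45% in saline, 2.85%, 3.20% and 2.58% in free R848, and 2.79% and 1.23% in medium R848-BPD. Group means were 2.83% ± 0.375, 2.87% ± 0.311 and 2.01% ± 1.11, and the lowest value, that of medium R848-BPD replicate 2, rested on 15 cells. The exact permutation tests gave p = 0.2, 0.4 and 0.9 in the order above, and with cells holding a UMI of the leukocyte gene Ptprc as the denominator p was 0.1 for medium R848-BPD against free R848, at a difference of -0.916 points in place of -0.865. Over all 6 tests of shares the adjusted p lay between 0.75 and 0.9. Neither share is shown to differ between treatments, and at this number of tumors a difference could not have passed the threshold.

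**Figure D4:**
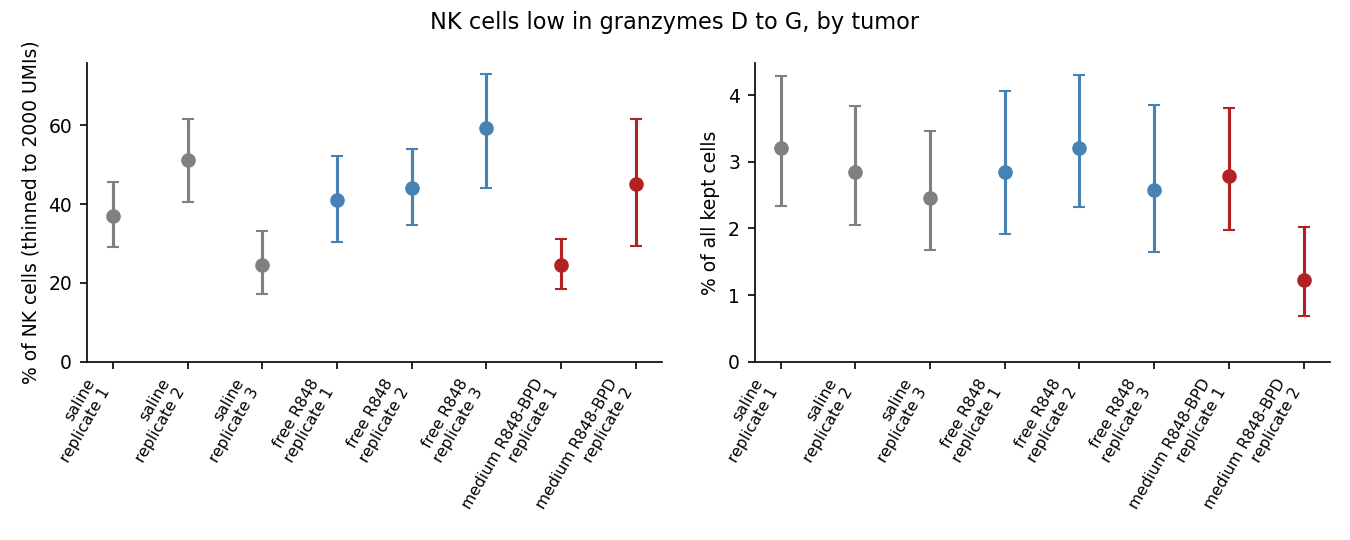
Share of NK cells that were granzyme-low after thinning to 2000 UMIs (left) and share of all kept cells that were granzyme-low NK cells (right), in percent, for each tumor. Points are shares and bars exact 95% binomial intervals, which cover counting error only, and the groups overlap, with medium R848-BPD replicate 2 lowest at the right at 1.23%.

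By the likeness of log2 CPM over 16 libraries, the 2 NK classes of 8 tumors, the genes whose deviations from the mean of their tumor were most like those of Xcl1, a measure of how the classes differ within a tumor, were Abcb9, a peptide transporter (Pearson r = 0.936), Mef2d (0.927), Crem (0.917), Tcf12 (0.903), Tnfrsf1b (0.900), Ptprcap (0.896), mt-Cytb (0.888), Exosc3 (0.887), Fbxl14 (0.883) and Mapk9 (0.881). Taken as deviations from the mean of each class, which follow the tumors, the same genes had lower values, from 0.114 for Abcb9 to 0.757 for mt-Cytb. For the deviations from the tumor mean, the 2 libraries of a tumor give equal and opposite values, so the 16 points hold 8 separate values. The genes were picked as the 10 highest, which by itself makes their values high. The points share tumors, libraries and depth, and these correlations are a description.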

How the data were processed

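The deposited tables hold raw UMI counts per gene and cell, 1 table per tumor, made by the authors from Seq-Well libraries. The submitters' processing notes name bcl2fastq and mm10. The aligner, the annotation and the choice of barcodes are not given in the sources used here. Cells with over 400 and under 10000 genes, under 50000 UMIs and at most 15% mitochondrial UMIs were kept. The members and gene lists (20 lists, 345 genes) were chosen with earlier results of these data known.

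UMI counts were summed over the cells of each tumor and class, leaving out the 13 gate genes. They were tested with edgeR 4.0.16 in R 4.3.3 (TMM, filterByExpr, quasi-likelihood, Benjamini-Hochberg adjusted p under 0.05). Treatments were fitted over the 8 tumors, classes with the tumor as a block, and classes by treatment with an interaction. The tumor, not the cell, was the replicate. The labels name separate mice only by number, so p-values measure the spread between these tumors. Shares were tested by exact permutation over tumors in scipy 1.17.1. Scrublet in scanpy 1.11.5 marked doublets, which stayed in outside 1 alternative. Alternatives included DESeq2 1.42.0, other gate limits and leaving out each tumor. In simulated counts over 4819 genes, the comparison of classes recovered 89% of genes changed by 1 and 87% of genes changed by 2 on the log2 scale, with 15 false calls. In both simulations all libraries shared a mean profile apart from the changed genes. Other differences between tumors or treatments, and single cells rich in a gene, were not part of the simulated means.

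Genes named were the called members of each list and its highest members, the 10 largest called rises and falls with no overlap between groups, or with the same direction in every tumor, for a mean log2 CPM not under 5, and the 10 most like Xcl1. Sparc, Fscn1 and Ccr7, named for the single cells that hold them, were chosen after their values were seen. CPM levels are UMIs per 1000000 UMIs outside the gate genes, computed here from the deposited counts. Some results are not reported here.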

Additional observations from a re-analysis of the deposited data

Results flagged for a closer look

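The treatment effect of Hspa1a, a stress-induced heat-shock protein, differed between the NK classes by the interaction test, the only such call for medium R848-BPD against saline (0.0152% of 6577 genes). The difference of log2 fold changes, granzyme-low minus other NK cells, was -9.07 (SE 0.96, adjusted p = 5.06e-05). In granzyme-low cells Hspa1a stood at 7.79, 34.3 and 106 CPM in saline and 0 and 11.5 CPM in medium R848-BPD. In other NK cells it stood at 3.39, 2.77 and 12.1 CPM in saline and 5.67 and 1042 CPM in medium R848-BPD. The last value rests on 172 UMIs in 11 of 26 cells of replicate 2, with 83 in 1 cell, and without that replicate the call was lost. Atf3, another stress gene, had a difference of -3.71 (adjusted p = 0.0588), with 72 of its 103 UMIs in other NK cells of that replicate in 1 cell. For medium R848-BPD against free R848 and for free R848 against saline, 0 genes were called in edgeR and 0 in DESeq2, with 314 and 195 genes at an unadjusted p under 0.05.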

How the results depend on the processing

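Of 2119 gene results under alternatives, 1817 kept their side of the threshold, 295 lost the call, 7 gained one and 0 called values changed sign. Counted among these 2119 are 4 results, called in neither setting or gained, that changed direction. The cause was not tested. Counts of calls moved as follows, in the order medium R848-BPD against free R848 (5 as reported), against saline (14), free R848 against saline (1), classes (378), and the interactions in the same order of treatments (0, 1, 0). With no filter on low counts they were 78, 89, 11, 671, 12, 4 and 15. A granzyme limit of 0 gave 2 and 6 for the first pair. A C1q limit of 1 gave 10 for the first, 2 for free R848 against saline, and 2 each for the interactions against saline. Gating after thinning gave 3 for the first and 0 for free R848 against saline. An equal number of cells per library gave 17 for the first, 3 for free R848 against saline and 74 for the classes, and 2 each for the interactions against saline. An NK limit of 3 left medium R848-BPD replicate 2 with 8 granzyme-low cells, under the minimum of 10 per tumor and class, so this tumor was not fitted. That limit gave 0 for free R848 against saline, while the interaction of medium R848-BPD against saline rested on replicate 1 alone. Removing cells marked by Scrublet gave 2 for free R848 against saline and 2 for the interaction of medium R848-BPD against saline. DESeq2 and only the 2 groups compared gave 2 each for free R848 against saline. Of the settings chosen after seeing the data, cells low in macrophage RNA gave 1, 184, 1 and 2 for the first, the classes and the interactions of medium R848-BPD, and removing cells with 10 or more UMIs of macrophage receptors gave 12 for the first, 2 for free R848 against saline, and 1 and 2 for those interactions. Leaving out a tumor gave ranges of 3 to 55, 8 to 73, 0 to 3, 265 to 381, 0 to 4, 0 to 5 and 0 to 0, in the order above, the highest of the first pair without medium R848-BPD replicate 1. For free R848 against saline the count was 0 without free R848 replicate 1 or 2 or saline replicate 2 or 3, 2 if free R848 replicate 3 or replicate 1 of medium R848-BPD was dropped, and 3 if replicate 2 of medium R848-BPD was. The interaction of medium R848-BPD against saline gave 0 without its replicate 2, 5 without its replicate 1 and 3 without saline replicate 2.

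Samples with the same replicate number had correlations of deviations between -0.055 and 0.135, so the numbers were not taken to pair the tumors. A replicate block gave 14, 18 and 3 calls between treatments and 0, 2 and 0 for the interactions. When a tumor was left out, the differences between groups, in the order above, were -23.6 to -3.10, -13.1 to 7.42 and 4.02 to 17.3 percentage points for the share of NK cells, against -13.4, -2.85 and 10.52 as reported, and -1.65 to -0.0823, -1.61 to -0.0414 and -0.149 to 0.227 for the share of kept cells, against -0.865, -0.824 and 0.0409. Depth limits the comparison of classes, since granzyme-low cells had fewer UMIs, and a level below 5 CPM rests on at most a few UMIs per library.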
